A study of Mus musculus with 2 samples.

Results

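The genes described here are 10 homeobox genes. Hoxa3, Hoxa5, Hoxa7, Hoxa9 and Hoxa10 lie in the Hoxa cluster, Evx1 is its neighbour, and Meis1, Meis2, Meis3 and Pbx3 are cofactor genes. All 10 were chosen by name, as the probes whose annotated transcript belongs to these genes. All of them had a probe, among 18434 genes with a named probe. They were read by 13 of 41174 probes: Hoxa3, Meis1 and Meis2 by a pair of probes each and the other genes by 1, each printed once per array. RNA came from mouse CD4 T cells of genotype Menin WT or Menin KO, with 1 array for each. Both samples were naive CD4 T cells from the spleen of female C57BL/6J mice, whose age the labels do not give. They were stimulated for 2 days with plate-bound anti-TCR-β (3 µg/ml) and anti-CD28 (1 µg/ml) antibodies and IL-2 (2.5 ng/ml), then kept for 3 more days in IL-2. How Menin was removed, by which Cre or promoter, and whether animals were pooled are not given in the sources used here. The series title concerns a Menin-Bach2 axis in CD4 T cell senescence and cytokine balance, and the comparison of the arrays asks which genes differ without Menin.

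Menin, the product of Men1, is a scaffold that joins MLL histone methyltransferases to chromatin, where they place methyl marks on histone H3 lysine 4 at active promoters. HOXA proteins bind DNA through a homeodomain and gain affinity and specificity by pairing with the TALE homeodomain proteins of the PBX and MEIS families. In acute leukaemias with MLL fusions the Hoxa genes and Meis1 depend on Menin, and in normal blood they are active in stem and progenitor cells and are silenced as cells mature, in part by Polycomb complexes.

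With 1 array a group there was no replicate and hence no test and no p-value. Differences are given for KO against WT on array-scaled signal, either as a fold or on the log2 scale, and a gene counted as higher or lower where it was at least 2-fold apart. A probe was read on an array where the scanner software flagged it as well above background. Where only 1 array read the gene, the fold is a lower bound. It sets the bright array against the dimmest level that the other array could still call (a signal of 14.0 on WT and 10.4 on KO), or against the dim probe itself where that was brighter. The errors given beside signals are the scanner software's estimate for that single spot. They hold no difference between mice, cultures or hybridisations. For probes printed several times on each array, with a mean signal of 50 to 400, the log2 difference between arrays scattered from spot to spot with an SD of 0.140 (31 probes). Under a mean signal of 100, a range that overlaps this one and holds Hoxa3 and Hoxa7, the SD was 0.266 (34 probes).

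The arrays were alike in scale, with a 75th percentile of signal of 644 on WT and 650.3 on KO. The share of non-control spots called above background was 59.5% on WT and 63.5% on KO. Men1 had a signal of 1081 on WT and 459 on KO, 2.38-fold lower. Whether the Men1 probe lies in the deleted part is not known here. Bach2, the repressor named in the series title, was 7.76-fold lower. T cell markers were bright on both arrays: Cd3d, a chain of the T cell receptor complex, had a signal of 62714 on WT and 55593 on KO. Cd4 was dimmer, at 443 and 279, and the CD8 T cell marker Cd8a was 10.2-fold higher in KO.

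Among the 10 genes, Evx1 was far lower in the KO array, while Hoxa7, Meis2 and Meis3 were at least 2-fold higher there. Pbx3 and Hoxa3 lay within 2-fold. Hoxa9 was read in KO only, at a signal too dim for a fold. Hoxa5, Hoxa10 and Meis1 were read on neither array. Of these, 3 of the 6 genes with a usable difference were higher in KO, 1 was lower and 2 lay between. Over all 13510 genes with a usable difference, 10.8% were at least 2-fold higher in KO and 5.14% lower, 15.9% in all. The median log2 difference was 0.96 over the 6 genes and -0.005 over all genes. Genes enter only if an array read them, so a gene read on 1 array alone had to differ, and these 6 do not stand for all 10.

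The promoters of the 4 genes at least 2-fold apart are shown because these genes went in opposite directions. Each run is the 250 bases before the annotated start, 5′ to 3′ on the gene's own strand, from RefSeq on GRCm38.p6, with CG dinucleotides in capitals. Such dinucleotides, when unmethylated, are bound by the CXXC domain of MLL1. The windows lie at chr6:52313248-52313497 (plus strand) for Evx1, chr6:52218574-52218823 (minus strand) for Hoxa7, chr2:116064620-116064869 (minus strand) for Meis2 and chr7:16175145-16175394 (plus strand) for Meis3.
Evx1: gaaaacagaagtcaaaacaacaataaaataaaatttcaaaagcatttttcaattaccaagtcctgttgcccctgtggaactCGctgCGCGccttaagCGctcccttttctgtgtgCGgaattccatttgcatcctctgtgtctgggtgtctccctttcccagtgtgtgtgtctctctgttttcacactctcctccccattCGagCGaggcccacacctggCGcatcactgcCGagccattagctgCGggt
Hoxa7: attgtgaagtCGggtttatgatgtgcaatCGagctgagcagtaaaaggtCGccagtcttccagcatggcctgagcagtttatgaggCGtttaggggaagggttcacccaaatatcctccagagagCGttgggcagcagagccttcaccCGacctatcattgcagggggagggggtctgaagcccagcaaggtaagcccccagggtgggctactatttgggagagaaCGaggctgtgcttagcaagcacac
Meis2: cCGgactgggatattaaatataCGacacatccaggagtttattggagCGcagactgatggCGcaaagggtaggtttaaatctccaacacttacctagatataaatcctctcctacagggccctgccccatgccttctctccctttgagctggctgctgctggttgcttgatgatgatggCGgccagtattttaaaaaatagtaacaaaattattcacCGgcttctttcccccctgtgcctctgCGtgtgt
Meis3: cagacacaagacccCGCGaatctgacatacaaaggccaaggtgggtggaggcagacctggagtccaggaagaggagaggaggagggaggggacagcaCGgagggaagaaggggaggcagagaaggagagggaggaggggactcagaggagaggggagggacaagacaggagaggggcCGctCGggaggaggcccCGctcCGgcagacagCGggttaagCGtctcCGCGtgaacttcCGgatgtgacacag

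The Evx1 window held 10 CG dinucleotides, that of Meis3 12, and those of Hoxa7 and Meis2 7 each. The median over all 32851 promoter windows of this length was 6, with quartiles of 2 and 16, so these 4 windows lay between the quartiles. Of the other members, Hoxa5 had 28, Hoxa3 18, Meis1 13 and Hoxa9 3. The 2 Hoxa10 windows had 20 and 7, and Pbx3 is not in the table. The search for 3 motifs was made on both strands over the 10 windows of 9 member genes. TGACAG, the core of MEIS sites, was found in 1 window, that of Hoxa3, and in 15.9% of all windows. TGATTNAT, a site of PBX and HOX pairs, was in none of the 10 and in 2.82% of all windows. TGANTCA, the core shared by AP-1 and Bach factors, was in none and in 6.75% of all. No motif overlapped another in these windows, and a match or its absence describes the letters alone.

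Evx1 encodes an even-skipped type homeodomain repressor of early embryos and spinal cord interneurons, and its gene ends the Hoxa cluster beyond Hoxa13. Its signal was 310.3 (error 31.2) on WT and 2.50 (error 2.50) on KO, where it was not well above background. The KO value lay near the 153 negative control spots of that array, whose median signal was 2.26. The difference was therefore a bound, at least 30.2-fold lower in KO (log2 difference -4.92), and only 0.0444% of all genes tested were as far or farther below 0. The pixels give the same picture before any correction: the median pixel signal of the spot was 304.5 over a local background of 56 on WT, and 59 over 50.5 on KO. Evx1 rests on 1 spot of 1 probe on each array, and no outlier flag was set on either. It was the only one of the 10 that was read in WT and not in KO.

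Within the Hoxa cluster, Hoxa7, which encodes a HOX protein of the middle of the cluster and is active in progenitor and leukaemia cells, had the clearest difference. Its signal was 54.0 (error 6.25) on WT and 135 (error 13.7) on KO, 2.48-fold higher in KO. These values differed by more than their spot errors, and 7.76% of all genes tested were as far or farther above 0. Hoxa3, a patterning gene of the pharyngeal arches that is needed to form the thymus, had a signal of 93.0 (error 9.78) on WT and 106 (error 10.8) on KO from its brighter probe. The log2 difference of 0.17 was below the spot scatter of probes under a signal of 100 (SD 0.266), and the values overlapped within their errors. Its other probe was read on neither array, with signals of 3.36 and 2.53. The RefSeq span of Hoxa3 covers Hoxa4, Hoxa5 and Hoxa6, so long Hoxa3 transcripts run through those genes, and the transcript each Hoxa3 probe reads within this span was not determined.

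Hoxa9, the Hoxa gene most closely tied to leukaemia and to stem cell expansion, was at the edge of detection. Its signal was 2.89 (error 2.88) on WT, not well above background, and 11.4 (error 2.46) on KO, which was. The KO signal lay below the lowest level at which the WT array called a probe, 14.0, so no fold can be given. Of the 153 negative control spots on the KO array 2 were at or above 11.4, and 2 were themselves flagged as well above background. Hoxa5, a regulator of lung and skeletal patterning, had signals of 3.07 and 2.76 on WT and KO. Hoxa10, a gene of uterine development that also acts in blood progenitors, had 3.12 and 2.36. Neither gene stood clear of its array's negative controls, whose median was 3.01 on WT and 2.26 on KO, and at this signal a difference was not detectable.

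**Figure D1:**
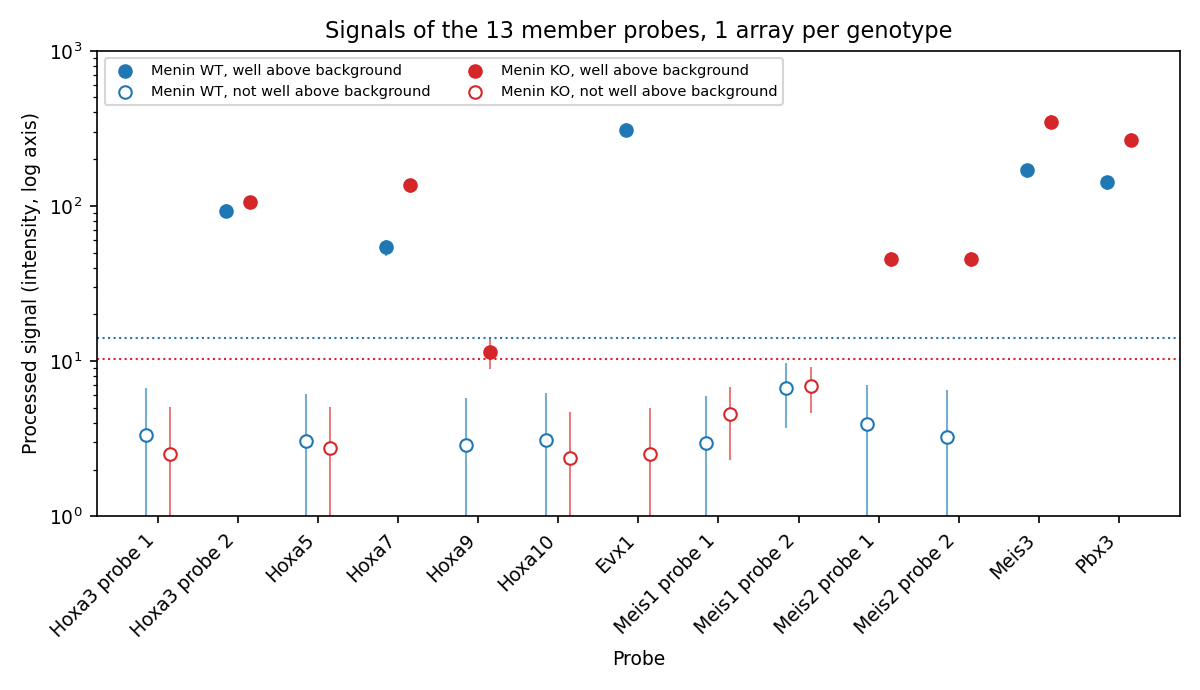
Processed signal (log axis) of each of the 13 probes on the WT array (blue) and the KO array (red), with filled points for probes well above background, open points for the rest, bars for the scanner software's error of the single spot (cut at the foot of the axis) and dotted lines at the lowest level read on each array, 14.0 and 10.4. Evx1 is filled in WT only, Hoxa9 and both Meis2 probes in KO only, and Hoxa7, Meis3, Pbx3 and the brighter Hoxa3 probe in both.

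Meis proteins bind the TGACAG core and stabilise HOX and PBX on DNA, and Meis1 is the partner that speeds HOXA9 leukaemia. Meis1 was read on neither array with either probe. Its brighter probe had signals of 6.68 (error 2.97) on WT and 6.91 (error 2.26) on KO, and the dimmer one 2.97 and 4.59. The brighter probe was positive against background by the looser flag of the scanner software on both arrays, and its values on the arrays differed by less than the spot error.

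Meis2, a paralogue best known in limb, heart and neural development, was read in KO by both of its probes and in WT by neither. The first probe had signals of 3.91 (error 3.13) on WT and 45.5 (error 5.13) on KO, and the second 3.25 (error 3.24) and 45.4 (error 5.13). The 2 probes gave nearly equal KO signals. Against the WT limit the difference was at least 3.22-fold higher in KO (log2 difference 1.69), and 5.50% of all genes were as far or farther above 0. Meis3, a less studied paralogue with roles in the hindbrain, was read on both arrays, with a signal of 169 (error 17.2) on WT and 349 (error 34.9) on KO. It was 2.04-fold higher in KO, just past the 2-fold limit, and 10.5% of all genes were as far or farther above 0. Pbx3, the PBX cofactor of HOXA9 in leukaemia, lay just inside the limit. Its signal was 142 (error 14.5) on WT and 266 (error 26.7) on KO, 1.86-fold higher. For Meis3 and for Pbx3 the gap between arrays exceeded both spot errors.

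Hoxa3, Hoxa7, Meis3 and Pbx3, the 4 genes read on both arrays, had WT and KO signals between 54.0 and 349. Genes in that range of brightness were more often apart than all genes: of 2954 read on both arrays with a mean signal of 50 to 400, 17.8% were at least 2-fold higher in KO and 6.36% lower, 24.1% in all. Of the 4 genes, Hoxa7 and Meis3 were at least 2-fold higher and none was lower. In that range 13.2% of genes were as far above 0 as Hoxa7, 17.3% as far as Meis3 and 19.4% as far as Pbx3. This range was chosen after the values were seen.

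The higher values of Hoxa7 and the Meis genes did not reach 2-fold in every setting, while Evx1 kept its side of the limit. Evx1 was at least 2-fold lower in all 11 of 12 settings that gave it a value, with log2 differences from -6.97 to -2.25. The 12th used only genes read on both arrays. Hoxa7 was at least 2-fold higher in 10 of 12 settings, Meis2 in 9 and Meis3 in 9. The 12 settings include the values as reported, and some of the others could not change a value. For Hoxa7 and Meis3, read on both arrays by 1 unflagged probe, the filter, flag, probe-mean and common-limit settings could only return 1.31 and 1.03. After normexp, another background correction, run with an offset of 50, Hoxa7 had a log2 difference of -0.13 and Meis3 of 0.37. Meis2 was left without a usable bound. With the 6 aberrant local backgrounds of the WT array replaced by the median, normexp gave 0.67 for Hoxa7, 0.74 for Meis3 and a bound of 0.39 for Meis2. The offset adds 50 to each corrected signal, which by itself shrinks the fold of a gene as dim as these. The normexp settings therefore cannot show how far background correction alone moved these values. Meis3 was also under the limit with median centring, at 0.95. Pbx3 stayed between the limits in all 12, from 0.18 to 0.92.

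**Figure D2:**
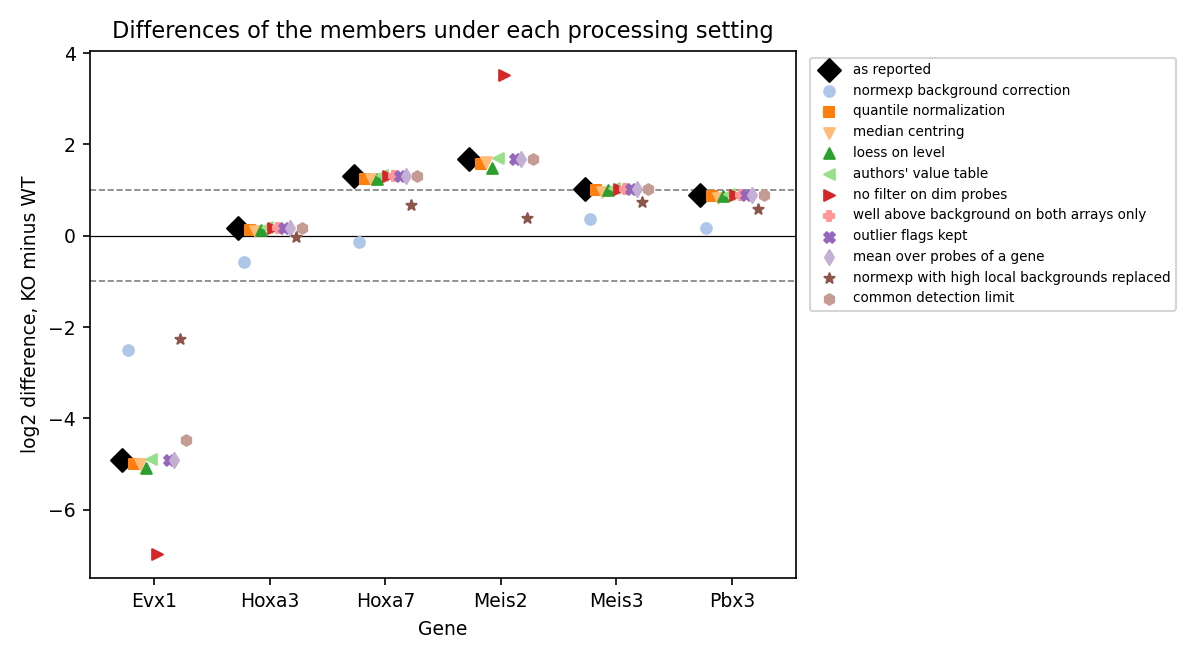
Log2 difference, KO minus WT, of the 6 genes with a usable difference, 1 marker for each processing setting (large black diamonds are the values as reported) and dashed lines at the 2-fold limits. Values for Evx1 stay below the lower limit, those for Hoxa7, Meis2 and Meis3 cross the upper limit under the normexp settings, and Hoxa3 and Pbx3 lie between.

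Along the chromosome, no neighbour of Evx1 that could be measured was at least 2-fold lower in KO. In RefSeq order the genes around the cluster are Snx10, Skap2, the Hoxa genes, of which Hoxa13 is the last, Evx1, Hibadh, Tax1bp1 and Jazf1. Hoxa13, next to Evx1 on one side, was read on neither array with either of its probes. Hibadh, a mitochondrial enzyme of valine breakdown, lay on the other side, with a signal of 7789 on WT and 9201 on KO and a log2 difference of 0.23. Tax1bp1, an autophagy receptor and restraint of NF-κB signalling, was 2.21-fold higher in KO, and its 3 probes gave log2 differences of 1.14, 1.09 and 1.17. Skap2, an adaptor of integrin signalling at the other end, had 0.42 and Snx10, a sorting nexin, 0.67. Of the 7 flanking genes with a probe, Evx1 counted, 1 was at least 2-fold higher, 1 lower and 4 between, and Creb5 was read on neither array.

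The remaining Hoxa genes were dim. Of 6 with a probe, 3 were read on an array: Hoxa6 on both, with signals of 30.8 and 25.8 and a log2 difference of -0.27, and Hoxa4 and Hoxa11 in KO only. Hoxa11, a posterior Hox gene of limb and uterus, had a signal of 3.11 on WT and 29.1 on KO, at least 2.06-fold higher. Its bound was under 2-fold with quantile normalization (0.91), median centring (0.97) and loess (0.84). Hoxa4, at 13.2 on KO, was too dim for a fold, and its other probe was read on neither array. As reported, Hoxa7 and Hoxa11 were thus higher in KO while Hoxa3 and Hoxa6, also in the cluster, differed by at most 1.20-fold.

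**Figure D3:**
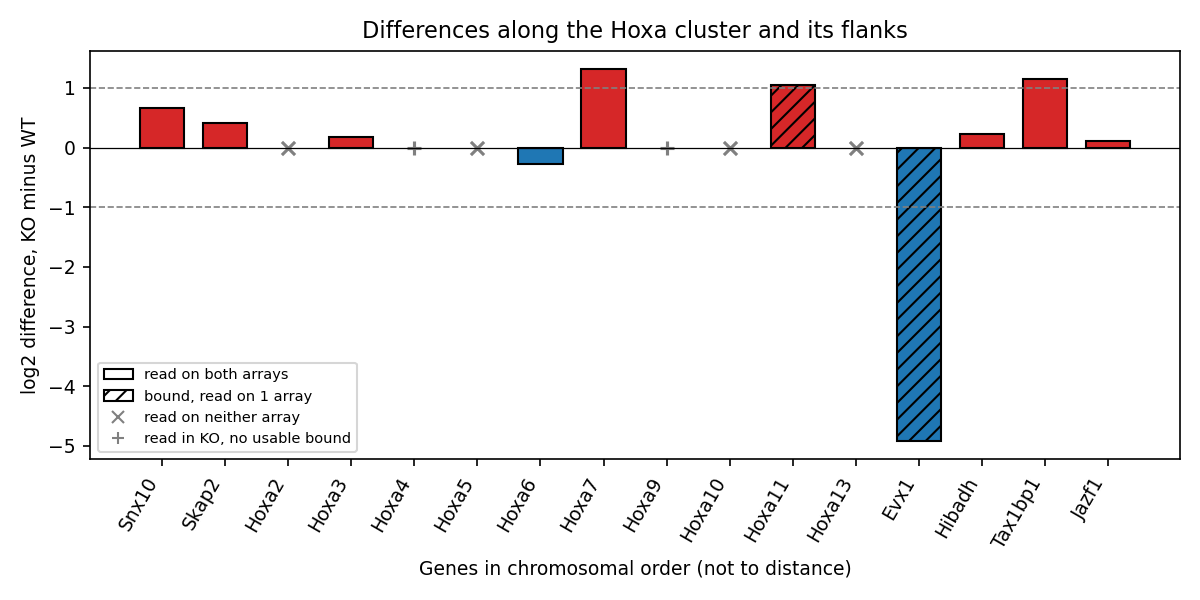
Log2 difference, KO minus WT, of 16 of the genes in chromosomal order around the Hoxa cluster (evenly spaced, not to distance), with plain bars for genes read on both arrays, hatched bars for bounds and grey marks for genes read on neither array (crosses) or in KO without a usable bound (plus signs). Evx1 stands at -4.92 between Hoxa13, read on neither array, and Hibadh at 0.23.

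The other Hox clusters were described with the same rule. More Hox genes were read on the KO array than on the WT array. Of 36 Hox genes with a probe, 5 were read on WT and 15 on KO: 4 on both, 11 on KO only, 1 on WT only and 20 on neither. Over all genes more were read on KO as well. Of the Hox genes not read on WT, 35.5% (11 of 31) were read on KO, against 18.9% (1080 of 5724) of all named genes. With 1 common detection limit for both arrays the shares were 25.8% (8 of 31) and 14.2%. This count was made after the values were seen, the Hox signals are dim, and no test was made of it.

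In the Hoxb cluster 5 of 10 genes were read, 4 of them at least 2-fold higher in KO and 1 with a bound under 2-fold. Hoxb4, which expands blood stem cells when overexpressed, was the only Hoxb gene read on both arrays, with a signal of 22.8 on WT and 55.3 on KO, 2.40-fold higher. Hoxb13, a posterior Hox gene of prostate and colon, was at least 3.63-fold higher in KO with a KO signal of 51.3, Hoxb7 at least 2.52-fold with 35.6 and Hoxb6 at least 2.34-fold with 33.0. The Hoxb median was 1.27, but 4 of the 5 genes entered only because KO read them, which puts their bounds above 0. After normexp Hoxb6, Hoxb7 and Hoxb13 had no usable bound, and the median of -0.67 was the value of Hoxb4. In the Hoxc cluster 1 of 6 genes with a probe was read: Hoxc9, a gene of thoracic patterning, had a signal of 3.61 on WT and 86.9 on KO, at least 6.15-fold higher. Normexp left Hoxc9 without a usable bound, and with the aberrant backgrounds replaced its bound was 0.91, under 2-fold. With them replaced, none of the 4 Hoxb genes above reached 2-fold either, at 0.18 to 0.57. The normexp offset, added to each corrected signal, by itself shrinks the fold of genes this dim. These normexp values therefore cannot show whether background correction alone moved the Hoxb and Hoxc9 differences. In the Hoxd cluster 4 of 9 were read. Hoxd13, the digit patterning gene, was at least 2.56-fold lower in KO with signals of 26.3 on WT and 2.22 on KO, from 1 of its probes, the other being read on neither array. Its bound fell short of 2-fold with a common detection limit (-0.91) and after normexp with backgrounds replaced (-0.65), where the offset again shrinks it. Hoxd4 and Hoxd10 had bounds under 2-fold on the higher side.

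None of the remaining TALE partners that were read was at least 2-fold apart. Of 9, 6 were read, all within the limits, with a median log2 difference of 0.20. Pknox1, which like MEIS proteins pairs with PBX, had a signal of 1721 on WT and 1019 on KO (-0.77). Tgif1, a TALE repressor, had 113 and 174 (0.61), and its paralogue Tgif2 -0.43. Pbxip1, which encodes a protein that binds PBX, was the brightest, at 14244 and 20195 (0.49). Pbx2, the broadly expressed PBX gene, had 0.08.

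Genes whose products activate or silence Hox clusters were mostly within 2-fold. Of 14 genes of the Menin and MLL complexes, Men1 alone was at least 2-fold lower. The other 13 lay within the limits, and the list median was -0.19. The brightest on the WT array were Dpy30, a core subunit of the complexes (-0.18), and Psip1, encoding LEDGF, which ties Menin and MLL to chromatin (-0.69). Kmt2a, encoding MLL1, had no named probe. Of 12 genes of DOT1L and the elongation partners that MLL fusions recruit, 11 lay within the limits, among them the brightest, Mllt6 (-0.19) and the elongation kinase gene Cdk9 (0.25), and the list median was -0.13. The exception was Ell2, an elongation factor of secretory lymphocytes, with a signal of 93.8 on WT and 422 on KO, 4.46-fold higher, and its other probe gave a log2 difference of 2.07. After normexp it was 0.94, under 2-fold. All 17 Polycomb genes lay within 2-fold, with a median of -0.31. Ezh2, the H3 lysine 27 methyltransferase, had signals of 4885 on WT and 2571 on KO (-0.94), Suz12 -0.59 and Eed -0.22, all 3 core subunits of the methyltransferase complex, while Ezh1 had 0.65. The brightest, Phc2 of the other Polycomb complex, had -0.53. Ezh2 and Ezh1, the alternative catalytic subunits, therefore lay on opposite sides of 0, both inside the limit.

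Genes linked to HOXA9 and MEIS1 in leukaemia and progenitor cells were higher or within 2-fold. Of 10 read, 4 were at least 2-fold higher in KO and none was lower. Of the rest 5 lay within the limits, and Mecom had a bound short of 2-fold. The list median was 0.36. Hlf, a PAR-type transcription factor of blood stem cells, had signals of 12.8 on WT, not well above background, and 226 on KO. It was at least 16.0-fold higher. Its bound after normexp was 0.72, and 1.81 with the aberrant backgrounds replaced. Id2, an inhibitor of E proteins in effector lymphocytes, was 4.15-fold higher and Myb, a regulator of progenitors and of T cell memory, 3.50-fold. Flt3, a direct HOXA9 target in leukaemia, was dim, with signals of 18.4 and 24.5 (0.40), and Bcl2 had -0.81. The bound of Mecom was -0.75 from its chosen probe, while its other 2 probes were read in KO only, so its direction was not settled. The Ink4 genes Cdkn2a and Cdkn2b, which Polycomb also silences, were far higher in KO, at 13.8-fold and 21.3-fold.

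**Figure D4:**
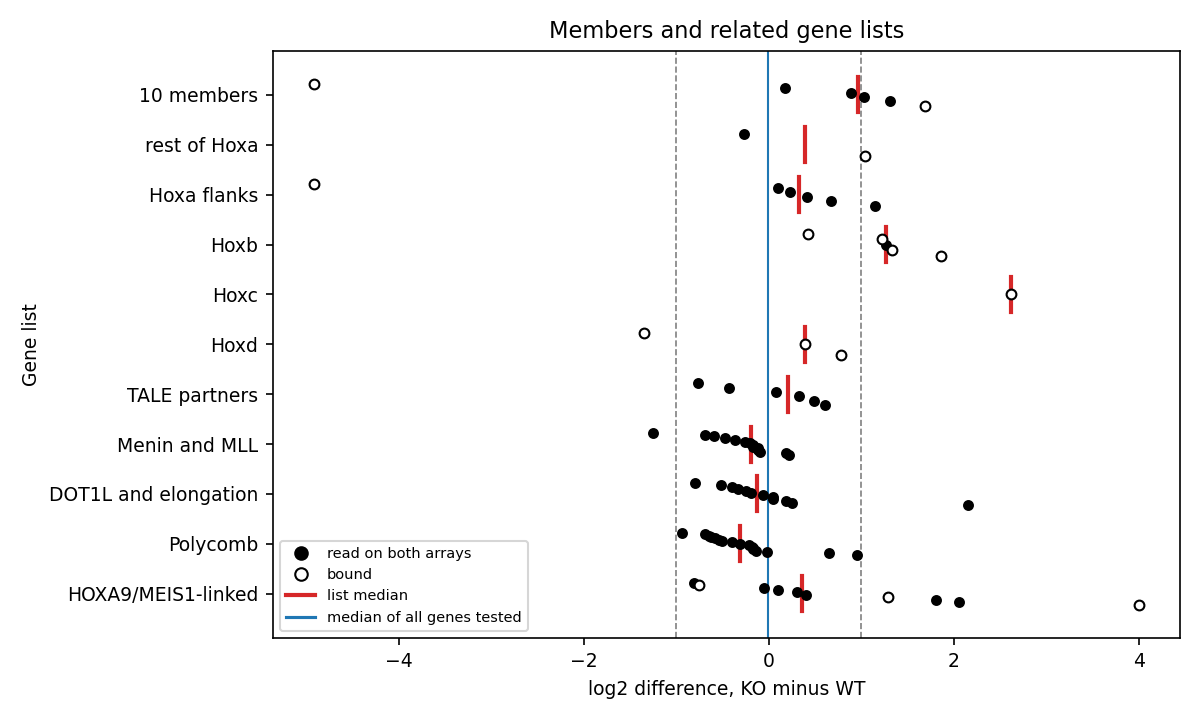
Log2 difference, KO minus WT, of the genes with a usable difference in each list, with filled points for genes read on both arrays, open points for bounds, red bars for list medians, a blue line at the median of all genes tested (-0.005) and dashed lines at the 2-fold limits. The 6 members spread from -4.92 to 1.69, while all 17 Polycomb genes and all 6 TALE partners lie inside the limits.

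Some markers of several other cell types were brighter on the KO array, and others of the same types were not. The CD8 T cell marker Cd8a, given above, had signals of 312 and 3213, and of 7 CD4 T cell markers Cd5 alone was at least 2-fold apart, 3.32-fold lower, with summed signals of 178103 and 130126. In bulk RNA a change in the number of such cells and a change per cell cannot be told apart. Of 5 progenitor markers with a probe, 4 were read and none was at least 2-fold apart, with a summed signal of 24536 on WT and 33005 on KO that came almost wholly from Ly6a, which activated T cells also express. Cd34 was read on neither array, and Gata2, read in KO only, had a bound of 0.35. Of 5 mast cell and basophil markers 3 were at least 2-fold higher in KO, with a summed signal of 95.4 on WT and 629.6 on KO, and Ms4a2 was read on neither. Of 8 macrophage markers 3 were higher (Cd14, Adgre1 and Fcgr3), with sums of 369 and 689 and a list median log2 difference of 0.002. Mpeg1 (-0.64), Csf1r (-0.39) and C1qb (0.002) lay within 2-fold. Lyz2 was not read in KO and Itgam on neither array. Of 5 natural killer markers 3 were higher, with sums of 2259 and 8997. Of 4 megakaryocyte and erythroid markers read, Gata1 was 11.7-fold lower in KO (signals of 971 and 84.0) and Hbb-bt 2.85-fold higher. Of 4 stromal markers read, Pdgfrb was at least 35.7-fold higher, while Dcn and Pdgfra were read on neither array. B cell markers had sums of 899.9 and 1593, with 1 of 4 read higher, and 1 of 5 neutrophil markers was read (Mpo, -0.48). That B cell marker, Ms4a1, was under 2-fold with quantile normalization (0.97), median centring (0.93) and loess (0.98), and Hbb-bt as the mean over its probes (0.82). After normexp, Ms4a1 (0.26), Hbb-bt (0.35), Cd14 (0.67), Fcgr3 (0.16) and the mast cell markers Mcpt8 (0.29) and Fcer1a (-0.51) were under 2-fold. Adgre1 had no usable bound. Cd8a, Cd5, Gata1, Pdgfrb, the mast cell marker Cpa3 and the 3 natural killer markers kept their side of the limit. With the aberrant backgrounds replaced, Cd14 (1.53), Fcgr3 (1.24) and Mcpt8 (1.35) were at least 2-fold higher. Adgre1 (a bound of 0.66), Fcer1a (0.37), Ms4a1 (0.70) and Hbb-bt (0.94) were still under 2-fold there. For dim markers the normexp offset by itself shrinks the fold, so these values cannot show what background correction alone did. The part of these cells in the Hox and Meis differences was not tested.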

How the data were processed

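Total RNA (500 ng) of 1 Menin WT and 1 Menin KO sample was labelled with Cy3 and hybridised to Agilent mouse arrays, per the labels' protocols. The intensity used is the processed signal the authors deposited, background-subtracted and detrended, per the file headers, by Feature Extraction 10.7.3.1, with probes annotated on mm9. The authors deposited log2 values as well. In each column they equal log2 of the processed signal minus 1 constant, within 0.01 for 99.7% of probes on both arrays (column medians -3.97 on WT and -3.90 on KO). Other flags of the scanner files have no unit and were used as deposited.

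Of 43379 non-control spots, 115 on WT and 103 on KO had an outlier flag and were dropped, and none was saturated. After log2, each array's 75th percentile was subtracted, and values were averaged over the spots of a probe. Transcript accessions were matched to a RefSeq gene table (GRCm38.p6), used for names and gene order: 27050 probes had 1 symbol and 14124 none. A gene took its brightest probe among those well above background on either array, and 276 genes had no usable bound. Promoter sequences were RefSeq's.

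No test was possible with 1 array a group. The number of arrays limits the precision. Every member was named. From each list, genes at least 2-fold apart were named (up to 6), or the 2 brightest where fewer were, and others named in the text were chosen after their values were seen. A few genes that this rule picks are not reported here. Members and lists were chosen with earlier results of these data known. Normexp used median spot signals in place of means, since the scanner files read here hold no mean spot signal. Alternatives are in the closing section. The procedure was tested on simulated data (Python 3.11.15, R 4.3.3, limma 3.58.1). Only brighter genes were shifted there, by more than the 2-fold limit, and no gene was read in KO alone.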

Additional observations from a re-analysis of the deposited data

How the results depend on the processing

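No paired analysis was possible because each group had 1 array, and for the same reason no array could be left out. Scaling (quantile, median centring, loess on level), the authors' value table, kept outlier flags and the mean over probes left 3 members higher (2 with median centring, which put Meis3 at 0.95) and 1 lower. The count of higher members was 0 after normexp, with or without the aberrant backgrounds replaced, and 0 at a 4-fold limit. The normexp offset by itself shrinks the fold of genes as dim as these members. The count of lower members was 0 among genes read on both arrays, since Evx1 was read on 1. The members' median log2 difference was -0.13 after normexp, 0.48 with those backgrounds replaced. Without the filter on dim probes, which lets in 4 more genes at dim signals, it was 0.53. Hoxa7 reversed to -0.13 after normexp. The Hoxb median reversed to -0.67 after normexp, where it was the value of Hoxb4. The Hoxc median, as reported that of Hoxc9 alone, reversed to -0.78 with no filter. Over all genes, 601 were higher and 1682 lower after normexp, 760 and 369 with backgrounds replaced, 2338 and 1712 at 1.5-fold, and 542 and 158 at 4-fold, while 1113 were lower with no filter. The related genes (12 higher and 2 lower as reported) gave 3 and 4 after normexp, 5 and 1 with backgrounds replaced, 5 and 1 among genes read on both arrays, and 4 and 0 at 4-fold. Of them 13 were lower at 1.5-fold, 8 with no filter, 4 as the mean over probes and 1 with a common detection limit. Except where the construction is named, the cause was not tested. The replaced backgrounds and the common limit were added after the data were seen. Dim signal limits Hoxa5, Hoxa9, Hoxa10 and Meis1 most.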
